A study of Mus musculus with 6 samples.

Results

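The genes described here are the nuclear genes for subunits of the oxidative phosphorylation system, compared between R1 and HN mESCs (mouse embryonic stem cells) by RNA-seq. They were chosen by symbol, with earlier results of these data known: Ndufa, Ndufb, Ndufc, Ndufs or Ndufv followed by a digit and Ndufab1 for complex I, Sdha to Sdhd for complex II, Uqcr for complex III, Cox4 to Cox8 for complex IV and Atp5 for complex V. This gave 85 of the 23412 genes in the deposited table, of which 38 belong to complex I, 4 to complex II, 8 to complex III, 18 to complex IV and 17 to complex V. The names Ndufa4, Cox7a2l, Atp5s and Atp5sl were kept where their symbols put them, although Ndufa4 is known today as a complex IV protein and the other 3 as factors that act on assembly or association of the complexes. R1 is the wild type parental line of strain 129Sv, and HN is a line of the same strain with genotype Htt-/-, in which the promoter and exon 1 of Htt are deleted. Both lines were kept undifferentiated without feeder cells, in medium with LIF and inhibitors of FGF receptor, MEK and GSK3 signalling, and each genotype is represented by 1 line, so that line and genotype cannot be told apart. Total RNA was collected on 3 dates, 1 library of each line per date, and replicates of the same number share a date. The experiment asked which genes differ when Htt is absent from undifferentiated mESCs.

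Complex I takes electrons from NADH and complex II, which is also the succinate dehydrogenase of the citric acid cycle, takes them from succinate. Complex III passes them to cytochrome c, complex IV passes them on to oxygen, and complex V, the ATP synthase, uses the proton gradient that complexes I, III and IV build up. Mouse embryonic stem cells use glycolysis as well as respiration, and many of these subunit genes are known to be transcribed under the factors NRF1, GABP (an ETS family factor), YY1 and ERRα.

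The promoters of a few of these genes show what such binding motifs look like in the sequence. A window from 250 bases before to 50 bases after the RefSeq transcription start (build GRCm38.p6) was found for 67 of the 80 subunit genes that could be tested. The windows of Ndufa11 and Cox7c are printed because these genes were lower in HN mESCs in the paired comparison described further on. Sdhd is printed as the gene whose window held the most kinds of motif, and Ndufs6 as an example with an NRF1 and a YY1 motif. Capitals mark every match, on either strand, to CGCANGCGC (NRF1), CCGGAAG (ETS), AAGATGGCG (YY1) or TCAAGGTCA (ERR), where N is any base. Ndufa11 lies at chr17:56717512-56717811 on the plus strand, Cox7c at chr13:86046746-86047045, Sdhd at chr9:50603800-50604099 and Ndufs6 at chr13:73328433-73328732, all 3 on the minus strand.
Ndufa11: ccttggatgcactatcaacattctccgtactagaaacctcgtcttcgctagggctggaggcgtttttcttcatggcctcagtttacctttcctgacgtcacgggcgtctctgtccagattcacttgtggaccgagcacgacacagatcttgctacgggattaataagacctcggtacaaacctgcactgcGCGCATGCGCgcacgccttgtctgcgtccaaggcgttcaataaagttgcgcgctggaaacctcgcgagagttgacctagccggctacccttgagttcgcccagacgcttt
Cox7c: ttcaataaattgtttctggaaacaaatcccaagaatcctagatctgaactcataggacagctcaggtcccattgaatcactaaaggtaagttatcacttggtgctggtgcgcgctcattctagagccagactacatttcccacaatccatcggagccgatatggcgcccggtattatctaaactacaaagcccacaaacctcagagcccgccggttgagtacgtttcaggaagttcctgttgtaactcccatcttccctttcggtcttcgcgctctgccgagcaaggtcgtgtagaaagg
Sdhd: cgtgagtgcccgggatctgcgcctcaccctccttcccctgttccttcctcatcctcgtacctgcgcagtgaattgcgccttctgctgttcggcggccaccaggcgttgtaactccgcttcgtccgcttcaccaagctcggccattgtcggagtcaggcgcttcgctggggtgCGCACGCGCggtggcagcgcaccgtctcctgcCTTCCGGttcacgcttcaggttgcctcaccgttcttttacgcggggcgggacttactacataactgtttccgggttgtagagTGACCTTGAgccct
Ndufs6: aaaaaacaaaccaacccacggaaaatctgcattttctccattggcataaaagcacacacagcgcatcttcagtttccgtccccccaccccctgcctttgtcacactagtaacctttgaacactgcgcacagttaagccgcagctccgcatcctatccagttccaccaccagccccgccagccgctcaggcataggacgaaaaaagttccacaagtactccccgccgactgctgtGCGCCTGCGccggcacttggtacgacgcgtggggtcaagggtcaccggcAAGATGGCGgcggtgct

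Counted from the 5′ end of the window, the Ndufa11 promoter matched the NRF1 motif at bases 191 to 199 on one strand and at bases 192 to 200 on the other, which is 1 palindromic stretch. The Sdhd promoter held an NRF1 motif at bases 173 to 181, an ETS motif at bases 205 to 211 and an ERR motif at bases 287 to 295. In Ndufs6 the NRF1 motif lay at bases 235 to 243 and the YY1 motif at bases 284 to 292. None of the 4 motifs occurred in the Cox7c window. Over the 67 subunit genes with a window, 23 (34.3%) held the NRF1 motif, compared with 14.5% of the 11232 tested genes that have a window. These 23 comprised 8 genes of complex I, 2 of complex II, 3 of complex III, 1 of complex IV and 9 of complex V. The ETS motif was present in 16 (23.9%) against 18.6% of tested genes, the YY1 motif in 8 (11.9%) against 3.26%, and the ERR motif in 2 (2.99%) against 0.329%. At least 1 of the NRF1, ETS and YY1 motifs was found in 38 subunit genes (56.7%) against 31.9% of tested genes. These are letter matches only, and no binding was measured here.

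The libraries held between 1640391 and 3866717 reads on genes, and Htt itself was lower in HN mESCs, at 43.5 ± 22.0 normalised counts against 229 ± 29.0 in R1 mESCs (SD, n = 3 libraries). A normalised count is the number of reads on a gene divided by the DESeq2 size factor of its library. All 8 pluripotency genes examined were well above the detection limit of 3 reads, among them Pou5f1 with 2967 ± 807 normalised counts in R1 and 2979 ± 862 in HN (SD, n = 3). Their levels were not all alike in the lines: in limma with the replicates of each date paired, Nanog, Esrrb, Klf4 and Dppa5a were higher in HN and Zfp42 was lower (log2 fold change -0.79, adjusted p = 6.4e-08), and Zfp42 also passed by DESeq2 without pairing (adjusted p = 0.000404). The summed normalised counts of 10 markers of other cell types were 121, 117 and 280 in the 3 R1 libraries. In the 3 HN libraries they were 153, 118 and 278, so the sums of both lines were highest on the third date. Single markers differed from this: T was highest on the second date. In the paired limma fit T was higher in HN (log2 fold change 1.21, adjusted p = 0.001) and Thy1 was lower (-1.54, adjusted p = 0.00112). T did not pass by DESeq2 with the same pairing (adjusted p = 0.0698).

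The subunit genes were together a small part of the transcriptome. They took 1.59%, 1.33% and 1.41% of the reads of the R1 libraries and 1.39%, 1.25% and 1.37% of those of the HN libraries, or 1.44% ± 0.132 against 1.33% ± 0.0774 (SD, n = 3), and these ranges overlapped. In R1 mESCs complex V took 0.593% ± 0.0327 of the reads, complex I 0.400% ± 0.0424, complex IV 0.263% ± 0.0482, complex III 0.128% ± 0.00937 and complex II 0.0583% ± 0.00365. In HN mESCs the same shares were 0.555% ± 0.0234, 0.361% ± 0.0295, 0.245% ± 0.0258, 0.120% ± 0.00415 and 0.0541% ± 0.00191, so the order of the complexes was the same. In bulk RNA of this kind fewer cells expressing a gene and less RNA per cell cannot be told apart.

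Levels were compared between genes as normalised counts per kilobase of transcript. By this measure Atp5b, the catalytic β subunit of the ATP synthase, was highest with 2653 in R1 and 2530 in HN, followed by Atp5a1, its α subunit, with 1750 and 1669. Within complex IV, Cox4i1 stood at 1592 and 1279 and Cox8a at 1506 and 1504. The median over both lines was 576 per kilobase for complex IV, 514 for complex III, 343 for complex V, 243 for complex I and 203 for complex II, compared with 21.7 for all 14276 tested genes. The 4 subunits of complex II, which are present in equal numbers in the enzyme, spanned from 70.9 for Sdha to 383 for Sdhd per kilobase in R1 mESCs. A few subunits were far below the others of their complex: Ndufab1, the mitochondrial acyl carrier protein, had 14.0 per kilobase in R1 and 11.1 in HN, Uqcrq had 65.0 and 49.9, and Atp5l had 41.2 and 32.1. Of the 50-base stretches of Atp5l transcripts 84.8% also occur in transcripts of other genes, and for Ndufab1 this is 31.2%, whereas Uqcrq shares none, and the part of shared sequence in these levels was not tested.

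**Figure D1:**
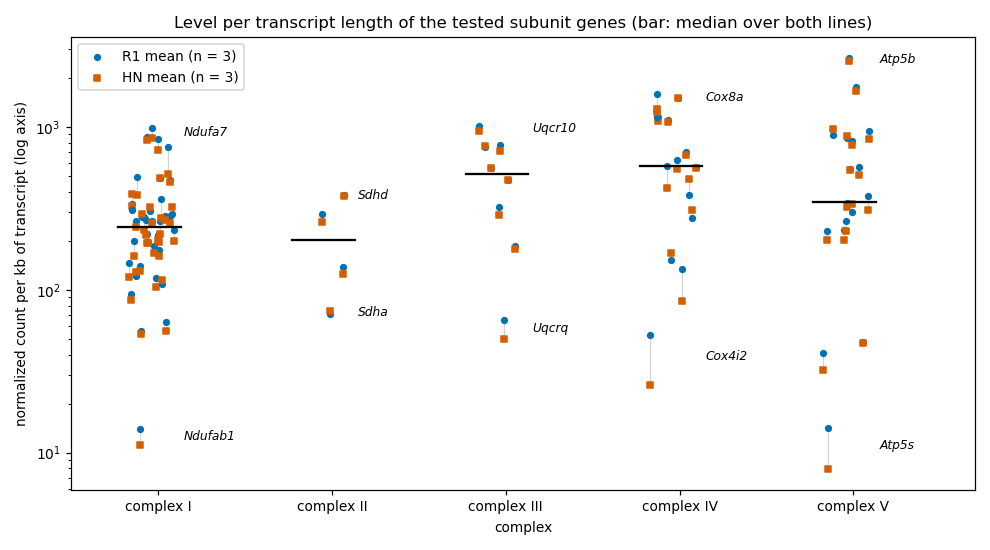
Level of each tested subunit gene as normalised count per kilobase of transcript (log axis), grouped by complex, with circles for the mean of 3 R1 libraries, squares for the mean of 3 HN libraries and a bar for the median of the complex. Atp5b is highest with 2653 in R1, and Ndufab1, Cox4i2 and Atp5s are lowest in complexes I, IV and V.

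The other 5 subunit genes fell under the mean of 5 normalised counts required for testing. Ndufs5, a complex I subunit on chromosome 4 from 123712710 to 123718202, had 0 reads in all 6 libraries, and for counting error alone this allows at most 3 reads or between 2.13 and 4.04 normalised counts per library. How the counting treated reads that map to several places, and which annotation it used, is not known here, so the 0 is not a measure of Ndufs5 expression. Of its 50-base stretches 41.2% also occur in BC002163, a processed pseudogene, which had 48.4 ± 18.2 normalised counts in R1 and 56.1 ± 11.5 in HN (SD, n = 3). Cox6a2 and Cox8b, the isoforms of heart and skeletal muscle, together with Cox7b2 and Cox8c, had at most 2 reads in any library and were not detectable at this depth.

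The comparison of HN with R1 mESCs covered the remaining 80 genes, namely 37 of complex I, 4 of complex II, 8 of complex III, 14 of complex IV and 17 of complex V. None was called higher and none lower in HN mESCs, where a call is a limma adjusted p-value (Benjamini-Hochberg over all 14276 tested genes) under 0.05 with an absolute log2 fold change above 1. By edgeR and DESeq2 on reads recovered from the values, without a block, the counts were also 0. Over all tested genes 0.119% were called higher and 0.126% lower by this rule. At an unadjusted p-value under 0.05, 2 subunit genes passed, Cox4i2 and Ndufa11, beside 5.91% of all genes. The median log2 fold change (HN minus R1, on the scale of log2 of normalised count plus 1) was -0.12 for complex I, -0.08 for complex II, -0.07 for complex III, -0.03 for complex IV and -0.08 for complex V. Over all 80 genes it was -0.09 and over all tested genes -0.01. Most fold changes were slightly negative, 60 of 80 (75%) compared with 51.5% of all tested genes, and 3 of 80 were above 0.5 in size compared with 17.6% of all tested genes.

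The data bounded most of these differences. For 73 of the 80 genes the 95% interval of the fold change lay wholly between -1 and 1 on the log2 scale, as it did for 55.04% of all tested genes. The 7 exceptions were Ndufa4l2, Ndufab1, Uqcrq, Cox4i2, Cox7a1, Atp5l and Atp5s, all genes of low level. The subunit genes had a median of 299 normalised counts per kilobase and a median SE of 0.22, against 21.7 and 0.30 for all tested genes. The part of level in this share, and in that of fold changes above 0.5 in size, was not tested. When replicates collected on the same date were paired (date block), the interval lay between -1 and 1 for 78 genes, with Cox4i2 and Atp5s as the exceptions.

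**Figure D2:**
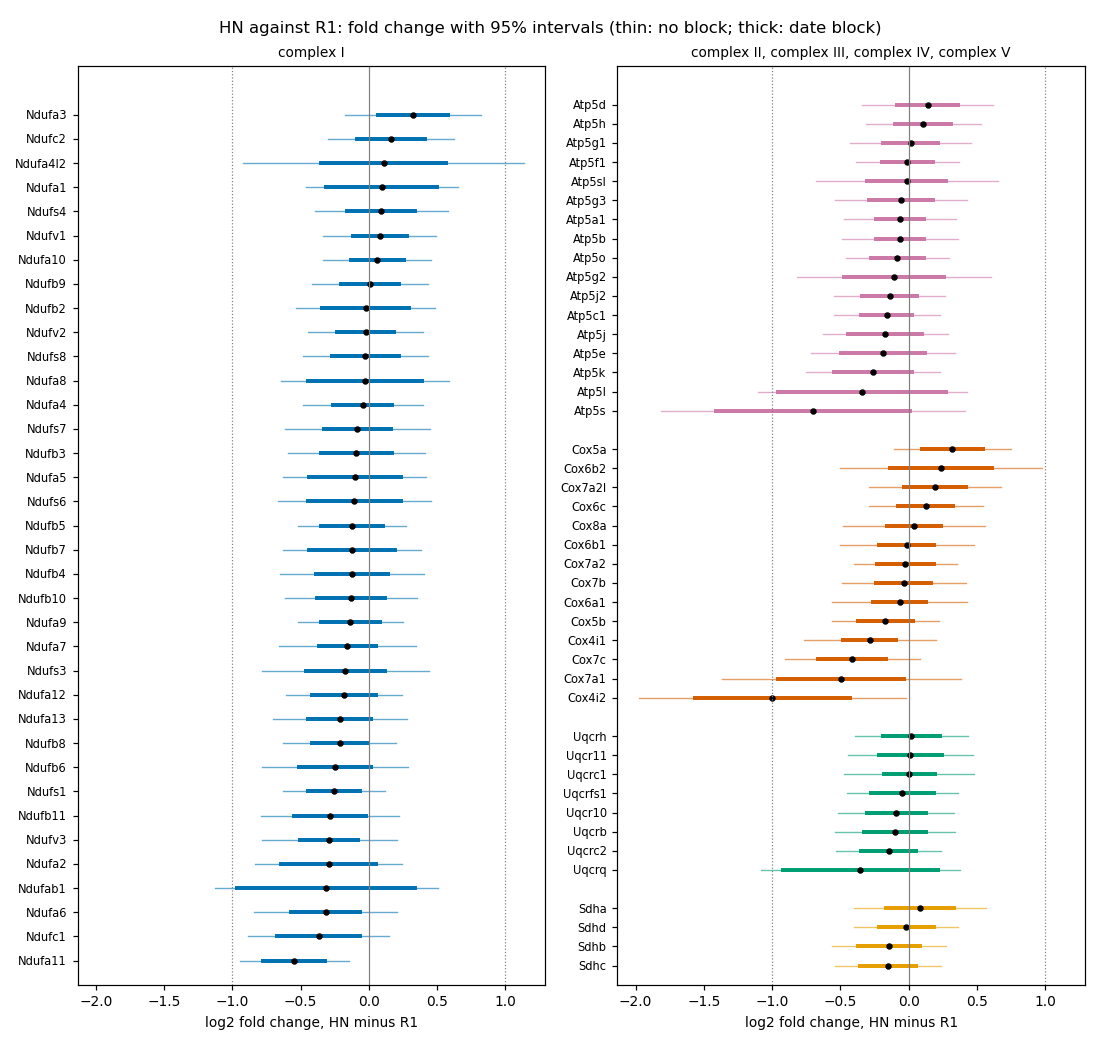
Log2 fold change of HN minus R1 for all but 1 of the 80 tested subunit genes, complex I on the left and complexes II to V on the right; points are estimates from 3 libraries per line, thin lines 95% intervals without the date block and thick lines 95% intervals with it, and dotted lines mark -1 and 1. Most points lie slightly left of 0, and Cox4i2, Atp5s and Ndufa11 lie farthest left at -0.999, -0.70 and -0.55.

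By limma the paired comparison called no subunit gene at an absolute log2 fold change above 1, where 1.95% of all genes passed, while edgeR with the block called 1, Cox4i2 (log2 fold change -1.05, adjusted p = 0.00742). The share of all genes called by edgeR with the block is not given here. At any fold the paired limma fit found 3 subunit genes lower in HN mESCs, Ndufa11, Cox4i2 and Cox7c, and none higher. These 3 of 80 stand beside the 4.02% of all genes that were lower by the same rule, and 5.46% of all genes were higher. In 3 subunit genes, Ndufa11, Cox4i2 and Ndufs1, the highest HN library was lower than the lowest R1 library, beside 5.54% of all tested genes, and in none was the reverse seen, beside 5.23%. For Cox4i2 the gap was narrow, at 25.6 against 26.6 normalised counts. With 3 libraries against 3 an exact permutation test of a single gene cannot give a two-sided p-value below 0.1.

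In complex I the clearest difference was in Ndufa11, which encodes an accessory subunit of the membrane arm (chromosome 17, 56717767 to 56722141, plus strand). Its normalised counts were 468, 385 and 384 in the R1 libraries and 260, 290 and 292 in the HN libraries. Every HN library was thus below every R1 library, and the HN libraries were close to each other. The log2 fold change was -0.55 ± 0.18 (SE), with an adjusted p-value of 0.567 by limma without the block and 0.00078 with it. Ndufa11 also passed with the date block by edgeR (adjusted p = 0.000153), by DESeq2 (adjusted p = 0.00715) and by limma after centring each library within bins of transcript length (log2 fold change -0.41, adjusted p = 0.017). Of its 50-base stretches 12.5% occur in another gene, most of them in Ndufa11b.

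Core subunits of complex I, which carry the flavin and the iron-sulphur clusters, showed no such difference. Ndufs1, the largest subunit, had 674, 733 and 766 normalised counts in R1 and 575, 643 and 599 in HN. Its groups did not overlap, but the log2 fold change of -0.26 ± 0.17 (SE) did not pass, with an adjusted p-value of 1 by limma and 0.0804 with the date block. Ndufs7 had 216 ± 50.3 against 203 ± 44.2 (SD, n = 3), Ndufs8 206 ± 39.9 against 201 ± 22.9, and Ndufv1, the NADH-binding flavoprotein, 506 ± 68.1 against 533 ± 61.2 normalised counts in R1 and HN. In each of these the difference was within the spread between replicates. Among the accessory subunits the highest fold changes were those of Ndufa3 (0.32 ± 0.23, SE) and Ndufc2 (0.16 ± 0.21), and the lowest after Ndufa11 was that of Ndufc1 (-0.37 ± 0.24). Ndufa3 had 201, 149 and 129 normalised counts in R1 and 232, 169 and 194 in HN, with overlapping groups. It passed only with length-bin centring and the date block together (limma, adjusted p = 0.0236) and not with the block alone (adjusted p = 0.111).

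The 4 genes of complex II had fold changes close to 0. Sdha, the flavoprotein, had 204, 254 and 158 normalised counts in R1 and 203, 242 and 199 in HN, and Sdhb, the iron-sulphur protein, had 396, 286 and 311 against 299, 303 and 287. The membrane anchors Sdhc and Sdhd had 439 ± 40.1 and 471 ± 39.6 in R1 and 395 ± 18.6 and 465 ± 21.9 in HN (SD, n = 3). The 4 log2 fold changes lay between -0.15 and 0.08, and the R1 and HN libraries overlapped for each gene.

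In complex III the fold changes lay between -0.35 and 0.02. Uqcrfs1, the Rieske iron-sulphur protein, had 251 ± 28.7 normalised counts in R1 and 243 ± 14.1 in HN (SD, n = 3). The core protein Uqcrc2 had 609 ± 71.9 and 549 ± 27.8, and the small subunits Uqcrh and Uqcr11 had 413 ± 65.6 and 248 ± 50.4 in R1 and 416 ± 24.1 and 248 ± 31.3 in HN. The lowest value belonged to Uqcrq, with 24.5, 22.2 and 32.3 in R1 and 19.5, 18.4 and 22.7 in HN, which did not pass with or without the block (adjusted p = 0.52 and 1 by limma).

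Complex IV held the largest fold change and most of the isoform pairs. Cox4i2, the isoform of subunit 4 known from lung and from low oxygen, had 59.6, 26.6 and 28.3 normalised counts in R1 and 25.6, 9.21 and 21.7 in HN. Each HN library was below each R1 library, but narrowly, with 25.6 in the highest HN library and 26.6 in the lowest R1 library. On the third date the reads were 21 in R1 and 20 in HN. R1 replicate 1 stood well above the other R1 libraries. The log2 fold change of -0.999 ± 0.45 (SE) gave an adjusted p-value of 0.827 by limma and 0.0172 with the date block. It passed with edgeR and the block (adjusted p = 0.00742), and did not with DESeq2 and the block (adjusted p = 0.195) or with length-bin centring and the block (adjusted p = 0.0555). Across all alternatives its log2 fold change ranged from -1.27 to -0.58. Cox4i1, the main isoform, had 1466, 1244 and 848 normalised counts in R1 and 1049, 966 and 843 in HN, so that its groups overlapped. Its log2 fold change of -0.29 ± 0.22 (SE) passed only by edgeR with the block (adjusted p = 0.0282, against 0.0505 by limma and 0.105 by DESeq2 with the block). In normalised counts per kilobase, Cox4i2 stood at 52.5 in R1 and 25.9 in HN.

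Cox7c, a small subunit of the membrane part of complex IV, had 391, 318 and 222 normalised counts in R1 and 224, 247 and 211 in HN. The 2 lines overlapped on level, and the difference was smaller on the third date than on the first. The log2 fold change was -0.41 ± 0.23 (SE), with an adjusted p-value of 0.998 by limma, 0.025 with the date block, 0.00812 by edgeR with the block, 0.146 by DESeq2 with the block and 0.158 with length-bin centring and the block. Of its 50-base stretches 53.0% occur in other genes, most of them in Gm10012, annotated as a processed transcript, so that counts of Cox7c are uncertain. Cox5a, which together with Cox5b lies on the matrix side, had 271, 254 and 217 in R1 and 343, 325 and 262 in HN. Its log2 fold change of 0.32 ± 0.20 (SE) was short of the threshold with the date block by limma (adjusted p = 0.0586), and passed by edgeR with the block (adjusted p = 0.0382) and with length-bin centring and the block (adjusted p = 0.0145), but not by DESeq2 with the block (adjusted p = 0.284).

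The remaining isoform sets of complex IV did not differ between the lines in any fit. Cox6a1 had 652 ± 171 normalised counts in R1 and 617 ± 120 in HN, Cox6b1 678 ± 189 and 657 ± 87.4, and Cox8a 828 ± 278 and 827 ± 123 (SD, n = 3). Cox6b2, the isoform known from testis, was detected in every library with 104, 69.5 and 37.7 in R1 and 86.4, 83.6 and 62.8 in HN. Cox7a1, the isoform of heart and skeletal muscle, had 90.5, 30.3 and 36.4 in R1 and 45.02, 27.6 and 28.2 in HN, and its log2 fold change of -0.49 ± 0.40 (SE) did not pass. Cox7a2, the ubiquitous isoform, was among the steadiest subunit genes with 395, 367 and 360 in R1 and 382, 354 and 366 in HN. Cox7a2l had 297 ± 79.2 against 334 ± 38.0.

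In complex V the catalytic pair did not differ. Atp5b had 5575, 5376 and 4297 normalised counts in R1 and 4847, 5274 and 4421 in HN, and Atp5a1 had 4766, 4501 and 3705 in R1 and 4109, 4327 and 3938 in HN. Both had a log2 fold change of -0.06 with an SE of at most 0.20. The highest fold changes of the complex were those of Atp5d, the δ subunit, with 0.14 ± 0.22 (SE), and Atp5h with 0.11 ± 0.19. The lowest was that of Atp5s, with 34.1, 10.4 and 18.9 in R1 and 17.0, 8.51 and 9.75 in HN, where the log2 fold change of -0.70 ± 0.51 (SE) did not pass and R1 replicate 1 was again the highest library. Atp5l followed with -0.34 ± 0.35.

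The c subunit, which forms the ring that turns in the membrane, is encoded by Atp5g1, Atp5g2 and Atp5g3. The genes differ in the targeting peptide but code for the same mature protein, and the stretches below show how far the coding bases differ where the peptide is the same. Each stretch is the 234 coding bases (78 codons) of the longest peptide shared by all 3, from the GENCODE M21 transcripts, and capitals mark the bases that differ from Atp5g1. The genes lie on the minus strand of GRCm38, Atp5g1 on chromosome 11 from 96068852 to 96075670, Atp5g2 on chromosome 15 from 102662864 to 102672352 and Atp5g3 on chromosome 2 from 73908447 to 73911326.
Atp5g1: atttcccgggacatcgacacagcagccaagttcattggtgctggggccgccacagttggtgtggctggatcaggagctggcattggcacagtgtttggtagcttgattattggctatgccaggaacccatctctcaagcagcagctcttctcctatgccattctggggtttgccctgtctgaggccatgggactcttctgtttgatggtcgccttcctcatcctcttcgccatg
Atp5g2: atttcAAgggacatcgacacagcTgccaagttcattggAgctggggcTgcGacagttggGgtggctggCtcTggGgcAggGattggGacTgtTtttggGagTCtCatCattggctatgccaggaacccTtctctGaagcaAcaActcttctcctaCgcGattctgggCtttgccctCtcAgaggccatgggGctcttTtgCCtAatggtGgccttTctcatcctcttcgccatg
Atp5g3: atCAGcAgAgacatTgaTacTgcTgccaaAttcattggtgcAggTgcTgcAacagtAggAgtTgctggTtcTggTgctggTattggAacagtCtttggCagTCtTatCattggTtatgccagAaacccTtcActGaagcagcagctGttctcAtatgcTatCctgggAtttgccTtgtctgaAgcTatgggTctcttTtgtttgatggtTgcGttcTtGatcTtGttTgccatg

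Atp5g2 differed from Atp5g1 at 36 of the 234 bases and Atp5g3 at 50, and the longest run identical to Atp5g1 was 20 and 11 bases, so that no read of 50 bases within this stretch is identical between Atp5g1 and either of the other genes. Atp5g1 was the most abundant with 451, 530 and 555 normalised counts in R1 and 412, 533 and 624 in HN. Atp5g3 had 292, 248 and 187 in R1 and 259, 239 and 195 in HN, and Atp5g2 had 156, 92.5 and 59.3 in R1 and 103, 70.2 and 94.2 in HN. None of the 3 differed between the lines (log2 fold changes of 0.02, -0.11 and -0.06 for Atp5g1, Atp5g2 and Atp5g3). They did differ between dates, and in opposite directions: from the first to the third date Atp5g1 rose by 0.45 on the log2 scale, while Atp5g2 fell by 0.76 and Atp5g3 fell by 0.52 (limma F test of date, adjusted p = 0.0096, 0.01 and 0.0094). Both lines showed the rise of Atp5g1 and the fall of Atp5g3 at each step, whereas for Atp5g2 the third date was above the second in HN. Whether the change over dates differs between these genes was not tested as such. All 50-base stretches of Atp5g2 and 66.0% of those of Atp5g1 also occur in transcripts of other genes, chiefly Gm10175 (a processed transcript) and Gm10039 (a processed pseudogene), and Atp5g3 shares none.

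**Figure D3:**
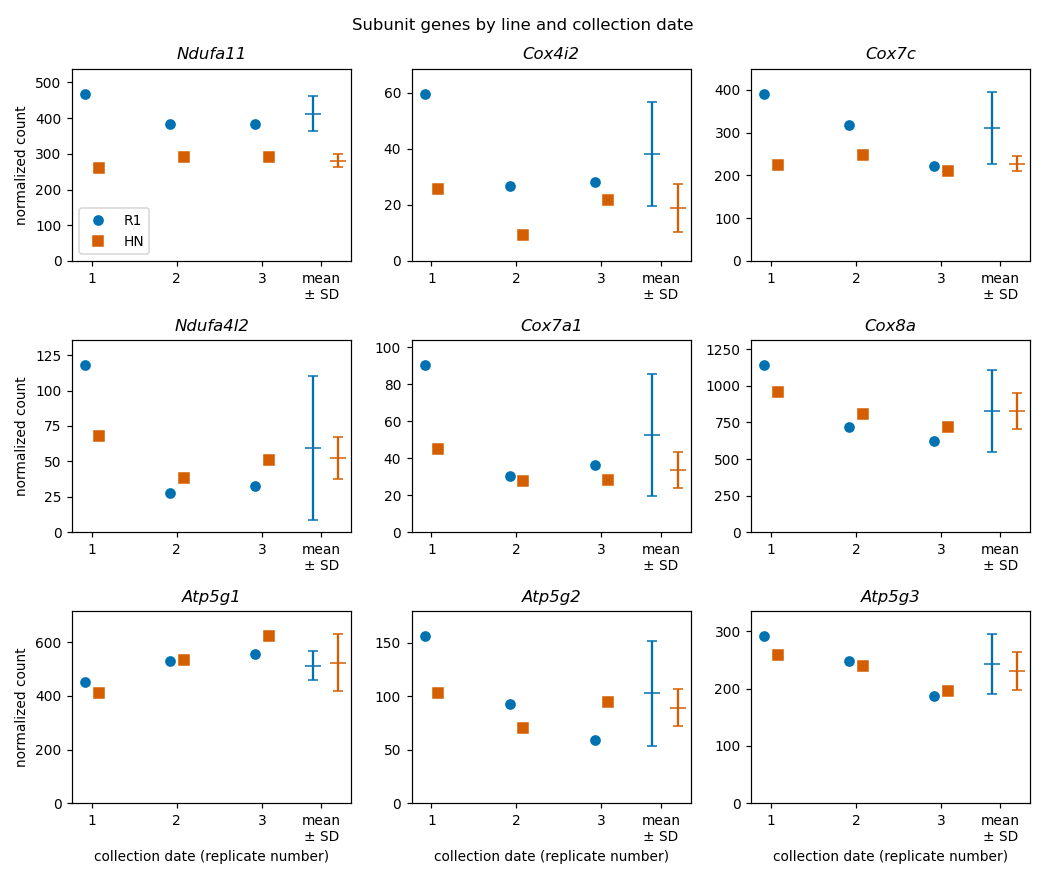
Normalised counts of 9 subunit genes by collection date, circles for R1 and squares for HN with 1 library per point, and mean ± SD (n = 3) at the right of each panel; axes start at 0. Ndufa11 is lower in HN on every date, Ndufa4l2, Cox7a1 and Cox8a are highest on the first date in both lines, and Atp5g1 rises over the dates while Atp5g3 falls.

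At an adjusted p under 0.05 and any fold, more subunit genes differed between collection dates than between the lines, as over all tested genes. In the fit with line and date, 37 of the 80 genes differed between dates (limma F test, adjusted p under 0.05), which is near the share of 46% over all tested genes. In that fit 3 of the 80 differed between the lines, all lower in HN. Over all genes 4.02% were lower and 5.46% higher. The date count was not steady: it fell or rose, depending on the library, when 1 library was left out, with the range given in the last section. Each such fit leaves 1 library on a date and holds fewer samples. The direction of the date differences was less mixed. Of the 37 genes 27 (73.0%) were highest on the first date, compared with 20.5% of all genes that differed between dates. The subunit genes had a median change of -0.15 on the log2 scale from the first to the second date and of -0.32 from the first to the third, against 0.01 and -0.04 for all tested genes. Complex IV had the largest changes, with medians of -0.31 and -0.50, and complex II the smallest, with -0.06 and -0.16. All 14 tested complex IV genes were highest on the first date by the mean of the lines, and 10 of them passed the test.

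The first date was most often the highest in each line on its own, except in complexes II and III. In R1 mESCs 60 of 80 subunit genes (75%) were highest on the first date and in HN mESCs 47 (58.8%), compared with 29.3% and 24.3% of all tested genes. For complex IV these counts were 14 of 14 in R1 and 13 of 14 in HN, the exception being Cox7c. Complex V was less uniform, with 14 of 17 in R1 and 8 of 17 in HN, complex III had 5 and 3 of 8, and complex II had 2 and 1 of 4, with 3 of 4 highest on the second date in HN. Cox8a illustrates the pattern, with 1144, 718 and 623 normalised counts over the dates in R1 and 960, 805 and 716 in HN (adjusted p = 0.00018 for date). The steepest fall from the first to the second date was that of Ndufa4l2, a paralogue of Ndufa4 known to be induced by low oxygen, which had 118, 27.4 and 32.3 in R1 and 68.1, 38.3 and 50.9 in HN. Its log2 change was -1.44 from the first to the second date (adjusted p = 0.00024 for date), while Ndufa4 itself had 473, 392 and 317 in R1 and 397, 398 and 338 in HN. Atp5s, Cox4i2 and Cox7a1 followed with -1.28, -1.26 and -1.11.

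Some subunit genes did not share this order. Ndufs3, Ndufs7, Ndufv1, Sdha, Uqcrc1, Atp5b and Atp5sl differed between dates with the second date highest, and Ndufb3, Atp5g1 and Atp5h with the third. The date is the day of collection given in the labels. All 10 markers of other cell types also differed between dates by the same test. Their summed levels were highest on the third date, as given above. Of the 8 pluripotency genes 6 differed between dates by that test. The summed normalised counts of the 8 genes were 17914, 15742 and 12129 over the dates in R1 and 17304, 15812 and 12845 in HN. The part of either set in the date differences of the subunit genes was not tested.

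**Figure D4:**
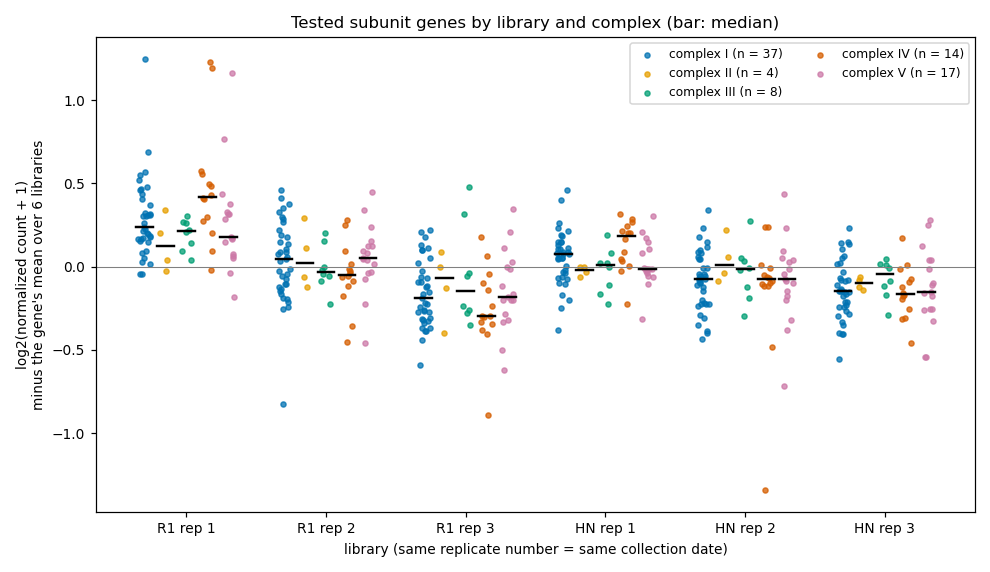
Log2(normalised count + 1) of each tested subunit gene minus its own mean over the 6 libraries, by library and complex (points, genes; bars, medians). R1 replicate 1 has the highest medians in every complex, 0.42 for complex IV and 0.24 for complex I, and the third date has negative medians in both lines.

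The median difference of HN from R1 over the subunit genes varied between the pairs of libraries. Each date holds 1 library of each line, so a change of the line difference with date cannot be told apart from differences between single libraries. R1 replicate 1 held the highest value of 52 of the 80 genes (65%), compared with 17.3% of all tested genes, and of 13 of the 14 complex IV genes. The median difference between the lines was -0.23 on the first date, -0.08 on the second and 0.04 on the third. Of the 80 genes 70, 52 and 36 were negative on these dates. Over all 14276 tested genes the medians were -0.02, -0.008 and -0.009, with 7322, 7243 and 7265 genes negative. For complex IV these medians were -0.26, -0.04 and 0.12, and for complex I -0.25, -0.18 and -0.008. Leaving out R1 replicate 1 alone gave a median of -0.005 and leaving out R1 replicate 3 alone gave -0.20, but these fits leave the dates unbalanced between the lines, so that line and date are mixed in them.

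Transcript length moved with these values. The subunit transcripts are short, with a median length of 751.5 bases against 2856 for all tested genes, and 61 of the 80 fell in the shortest of 8 equal bins of all tested genes. In that bin, which holds 1769 genes of up to 1285 bases, the median deviation of R1 replicate 1 from the mean of the libraries was 0.18 and the median fold change of HN against R1 was -0.11. In the bin of the longest transcripts the deviation of R1 replicate 1 was -0.12 and the median fold change 0.08. When each library was centred within 20 bins of length, the median fold change of the subunit genes was 0.02, with 0.004 for complex I, -0.005 for complex II, 0.05 for complex III, 0.09 for complex IV and -0.03 for complex V. After this centring 24 subunit genes differed between dates. The share of all tested genes that did so after the same centring is not given here, so no change particular to the subunit genes can be read from this count.

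**Figure D5:**
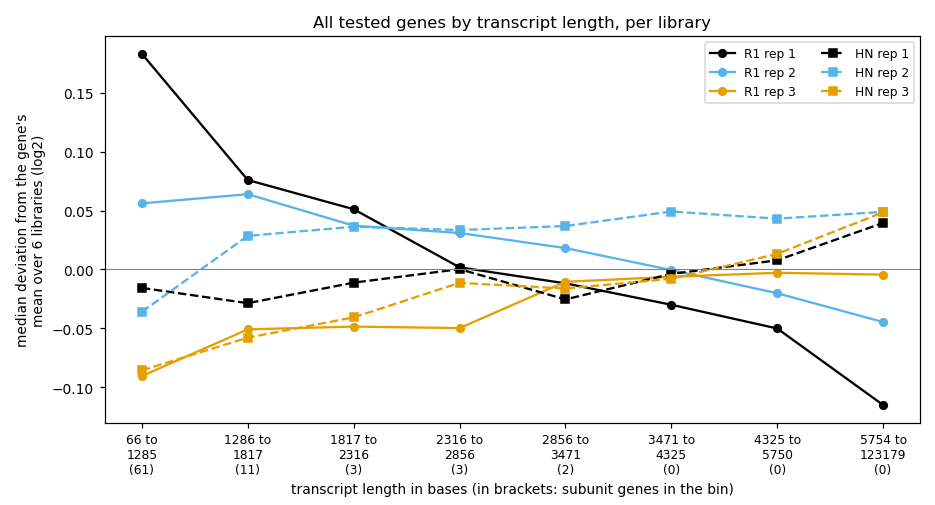
Median deviation of all tested genes from their mean over the 6 libraries (log2) in 8 bins of transcript length, 1 line per library (solid, R1; dashed, HN; colour, date), with the number of subunit genes per bin in brackets. R1 replicate 1 goes from 0.18 in the shortest bin, which holds 61 subunit genes, to -0.12 in the longest.

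Genes that act with the subunits were examined in the same fits, and none was called without the block by limma, edgeR or DESeq2. At an unadjusted limma p-value under 0.05 the counts were 1 of 39 assembly factors, 1 of 16 regulators, 2 of 13 citric acid cycle genes, 2 of 76 mitochondrial ribosomal protein genes and 1 of 6 genes for cytochrome c and further subunits. Over all tested genes 5.91% passed by this rule. In the paired limma fit 4.02% of all tested genes were lower and 5.46% higher at an adjusted p under 0.05. Of 39 tested assembly factors of the complexes (median log2 fold change -0.14) only Pet100, an assembly factor of complex IV, was lower in the paired fit, with 119 ± 19.8 normalised counts in R1 and 80.04 ± 10.3 in HN (SD, n = 3; log2 fold change -0.57, limma adjusted p = 0.0123 with the block). Pet100 did not pass with the block by DESeq2 (adjusted p = 0.158) or after length-bin centring (adjusted p = 0.052). Of 16 tested regulators of mitochondrial genes (median -0.02) only Polg, the mitochondrial DNA polymerase, was lower by that fit (log2 fold change -0.65, adjusted p = 0.00162 with the block). Nrf1, Gabpa and Tfam, factors that act on the subunit genes or on mitochondrial DNA, had log2 fold changes of 0.05, -0.11 and -0.10 and did not pass. Ppargc1a, a coactivator of these factors, had between 1.22 and 8.66 normalised counts and was not tested.

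Among 13 citric acid cycle genes Cs, the citrate synthase, and Idh3g, a subunit of isocitrate dehydrogenase, were higher in the paired fit (log2 fold changes 0.40 and 0.53, limma adjusted p = 0.00308 and 0.000749). Suclg2, the GTP-specific subunit of succinyl-CoA ligase, was lower (-0.77, adjusted p = 0.000154). Of 76 mitochondrial ribosomal protein genes (median -0.12) Mrps24 was higher, and Mrpl15, Mrps27, Mrps31, Mrps35 and Mrps9 were lower in the paired fit. These are 1 and 5 of 76 genes, beside 5.46% and 4.02% of all genes, and of the 6 only Mrpl15 also passed by DESeq2 with the block (adjusted p = 0.0481). Cyc1, the cytochrome c1 subunit of complex III, lies outside the symbol rule. It had 225 ± 52.2 normalised counts in R1 and 248 ± 45.6 in HN (SD, n = 3). Cycs, the cytochrome c that takes electrons from complex III, had 211 ± 19.1 and 203 ± 29.5, and neither gene passed in any fit. Cyct, the cytochrome c of testis, had 19.2, 16.3 and 17.5 in R1 and 31.6, 24.1 and 86.6 in HN. All HN libraries were above the R1 libraries, with HN replicate 3 far above the others (log2 fold change 1.16, limma adjusted p = 0.689 without and 0.00728 with the block), and Cyct did not pass by DESeq2 with the block (adjusted p = 0.118). The 13 subunits encoded by mitochondrial DNA were not analysed here.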

How the data were processed

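RNA-seq libraries of R1 and HN mESCs (3 each) were made by the authors with a TruSeq RNA kit (version 2) and sequenced as paired-end reads of 50 bases. Alignment by the authors used STAR and the genome mm10/GRCm38, duplicates were taken out with Picard, and exon reads per gene from HTSeq were divided by DESeq2 size factors. The deposited values are this normalised signal per gene. Versions, the annotation and the strand setting of the counting are not given in the sources used here, so that reads of overlapping genes on opposite strands, as at Ndufb6, Atp5o and Ndufa13, cannot be told apart. Unused columns of per-sample values numbered 0. Whole reads were recovered from the steps of the values in 100% of cases (within 0.01 reads) and gave the depth of 1640391 to 3866717 reads and the count-based alternatives. Limits at 3 reads cover counting error only.

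Values were log2-transformed with a pseudocount of 1, and 14276 genes with a mean of at least 5 were fitted with limma 3.58.1 in R 4.3.3 with a variance trend and Benjamini-Hochberg adjustment. The p-values measure the spread between these libraries. The main fit had no block, as the authors named none. Replicates of the same number share the collection date in the labels, so values with the date block are given where they change a call. The deviations of such libraries from their line means correlated with 0.25, 0.69 and 0.77 over genes, against -0.71 to 0.34 for different dates. Such deviations cancel out within each line, so these correlations depend on each other and are no test of the pairing. R1 replicate 1 correlated more with HN replicate 2 (0.34) than with HN replicate 1 of its own date (0.25). Replicates of a line differed beyond sampling noise (chi-square per degree of freedom 4.70 to 9.89), and all 6 libraries were counted. Alternatives were edgeR 4.0.16 (quasi-likelihood) and DESeq2 1.42.0 on recovered reads with and without the block, median centring, quantile normalisation, a mean of at least 50 or no filter, pseudocounts of 10 and 0.1, no variance trend, centring within 20 bins of transcript length, and leaving out each library; the last was added for the date test after seeing the data. The scripts were tested on simulated data.

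Members and gene lists were chosen with earlier results of these data known. Genes named are those that passed with or without the block, the 2 highest and 2 lowest fold changes of each complex, core subunits, isoform sets and, from other lists, those that passed; others were named after their values were seen. The values of 1 complex I gene are not reported here. Positions, lengths (principal transcript) and shared 50-base stretches come from GENCODE M21, promoters from RefSeq. Mitochondrially encoded genes were not analysed here.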

Additional observations from a re-analysis of the deposited data

How the results depend on the processing

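Over the alternatives 159 of 171 summary values kept their direction and side of the threshold, or stayed within 1.5 times for counts and within the spread for medians. The replicate block, which pairs libraries of the same date, raised the subunit genes at an adjusted p under 0.05 from 0 to 3 by limma, 5 by edgeR, 1 by DESeq2 and 3 with length-bin centring. By limma with the block 4.02% of all tested genes were lower and 5.46% higher. The shares over all genes by the other methods are not given here, so their counts cannot be set against a background. With edgeR and the block 1 gene, Cox4i2, was called lower at a log2 fold change below -1. The block changed no other call over summary values. The median of complex III was 0.0479 with length-bin centring, with and without the block, and ranged from -0.14 to 0.0289 when 1 library was left out. The number of subunit genes that differed between dates was 24 with length-bin centring, and ranged from 18 (without R1 replicate 2) to 47 (without HN replicate 1) when 1 library was left out, with 23 without R1 replicate 1 and 21 without HN replicate 2. The cause of these changes was not tested, except that the fits without a library hold fewer samples and leave the dates unbalanced between the lines. The share of all tested genes that differed between dates in these alternative fits is not given here. Of 795 values of the 40 genes of the naming rule, 778 kept direction and side, 12 newly passed the threshold, 5 moved and 0 were reversed, while 21 genes that did not pass had a sign change under at least 1 alternative. Depth limits the low genes most. With the date block the 95% intervals of Cox4i2 and Atp5s reach beyond a log2 fold change of -1. Without the block those of Ndufab1, Uqcrq, Cox7a1 and Atp5l do so as well, and that of Ndufa4l2 reaches above 1.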
